A study of Arabidopsis thaliana with 4 samples.

Results

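The genes described here make tryptophan and turn it into indole glucosinolates, and 10 genes were chosen by locus identifier from the 32833 genes of the count table. They are the anthranilate synthase genes ASA1 (AT5G05730) and ASB1 (AT1G25220), the transcription factor genes MYB34 (AT5G60890), MYB51 (AT1G18570) and MYB122 (AT1G74080), and the core enzyme genes CYP79B2 (AT4G39950), CYP79B3 (AT2G22330), CYP83B1 (AT4G31500), SUR1 (AT2G20610) and UGT74B1 (AT1G24100). The set was chosen because MYB34 was among the largest falls in the mutant, so the difference between the genotypes belongs to the choice, and the values of the 10 genes are given as a description without a test. RNA was sequenced from callus on hypocotyl explants of Arabidopsis thaliana, cut from seedlings grown in the dark and kept under continuous light on callus induction medium with the auxin 2,4-D and the cytokinin kinetin for 5 to 6 days. The wox5-1 wox7-1 double mutant, with mutations in the homeobox genes WOX5 and WOX7, was set against the wild type Col-0. Each genotype had 2 libraries, and about 100 calli went into the RNA extraction. No label states that the libraries are separate cultures, so the p-values rest on a spread between libraries that may be only technical.

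Tryptophan is made from chorismate in the plastid, and anthranilate synthase, built of alpha and beta subunits, catalyses the committed and feedback-regulated step. In Arabidopsis the cytochromes P450 CYP79B2 and CYP79B3 convert tryptophan to indole acetaldoxime, from which indole glucosinolates, the antimicrobial camalexin and some auxin derive. CYP83B1 commits the aldoxime to glucosinolates, SUR1 cleaves the sulfur conjugate, UGT74B1 adds glucose and a sulfotransferase completes the core. MYB34, MYB51 and MYB122 are related R2R3-MYB activators of these enzyme genes. MYB34 is best known from roots and MYB51 from shoots and from responses to pathogens.

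The libraries held 35078420 and 40008661 gene-assigned reads in the mutant and 30041268 and 35975440 in the wild type, after a constant of 10 was taken from every deposited count. WOX5 stood at 0.255 and 0.846 CPM (reads per 1000000, scaled by the TMM method) in the mutant libraries and at 144 and 146 CPM in the wild type libraries. WOX7 transcripts were higher, with 22.4 and 22.2 CPM in the mutant and 14.8 and 13.1 CPM in the wild type. The log2 fold change of WOX7, mutant over wild type, was 0.68 (SE 0.11, edgeR adjusted p = 0.0335). The 9 founder cell and root meristem markers of callus summed to 1180 and 1070 CPM in the mutant and 1320 and 1220 CPM in the wild type. These sums cover opposite differences: 2 of the 9 rose (LBD17 and LBD18) and 3 fell (PLT2, BBM and SCR). Over all tested genes 6.06% rose and 5.81% fell. The 6 leaf mesophyll markers summed to 9.51 and 4.85 CPM in the mutant and 6.38 and 4.76 CPM in the wild type. Markers of myrosin cells, which hold the enzymes that break glucosinolates down, summed to 0.396 and 0.257 CPM in the mutant and 0.132 and 0.194 CPM in the wild type, with TGG2 at 0 in all 4 libraries. Mutant replicate 2 stood apart in its pathogen response genes, whose 9 members summed to 352 and 829 CPM in mutant replicates 1 and 2 and to 178 and 121 CPM in the wild type. Of the 7 tested 1 rose, the immune regulator gene PAD4, with 121 and 283 CPM in the mutant and 36.8 and 16.3 CPM in the wild type. For this reason the log2 fold changes of the 9 tested members are also given without that library, a choice that rests on these values. Without mutant replicate 1 instead, they were -4.385 for MYB34, 2.096 for MYB51, 0.626 for CYP79B2 and -1.105 for CYP79B3. For CYP83B1 the value was then 0.266, for SUR1 0.185, for UGT74B1 0.088, for ASA1 1.287 and for ASB1 0.128.

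MYB34 and MYB51, and likewise CYP79B2 and CYP79B3, are paralogues whose levels differed between the genotypes in unlike ways, and the sequences below show how far reads from each pair can be told apart. Each stretch is 90 coding bases of the TAIR10.1 RefSeq annotation, read 5′ to 3′ on the plus strand, and capitals mark the bases that differ between the 2 genes of a pair. The MYB stretches (chr5:24495053-24495142 and chr1:6389792-6389881) differ at 15 bases, and the CYP79B stretches (chr4:18525357-18525446 and chr2:9488650-9488739) at 25.
MYB34: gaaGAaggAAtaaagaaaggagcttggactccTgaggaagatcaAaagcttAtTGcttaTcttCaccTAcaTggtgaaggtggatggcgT
MYB51: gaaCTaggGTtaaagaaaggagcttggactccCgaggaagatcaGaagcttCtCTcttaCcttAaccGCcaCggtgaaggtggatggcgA
CYP79B2: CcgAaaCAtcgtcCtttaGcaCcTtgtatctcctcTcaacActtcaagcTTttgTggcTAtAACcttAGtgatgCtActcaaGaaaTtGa
CYP79B3: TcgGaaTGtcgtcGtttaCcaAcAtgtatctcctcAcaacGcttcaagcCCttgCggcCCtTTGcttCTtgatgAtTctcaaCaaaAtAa
Over their whole coding sequences, MYB34 and MYB51 were identical at 71.2% of 862 aligned bases, with a longest shared run of 22 bases. For CYP79B2 and CYP79B3 it was 81.1% of 1692 bases, with a longest shared run of 32. Both identities leave out gaps. No annotated gene overlaps a member other than ASA1 and ASB1.

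Among the regulators, MYB34 stood far lower in the mutant and MYB51 higher. MYB34 (chromosome 5, 24494291 to 24496371, plus strand, 3 exons) had 0.934 and 0.513 CPM in the mutant libraries and 13.1 and 8.44 CPM in the wild type libraries. These are 33 and 20 reads in the mutant and 399 and 305 in the wild type, and the genotypes did not overlap. Its log2 fold change, mutant over wild type, was -3.90 (SE 0.42), or -3.52 without mutant replicate 2. The value from all libraries ranked 42nd among all 1088 called falls and 6th among the 488 of them that had a symbol and averaged 2 or more in log2 CPM. MYB51 (chromosome 1, 6389399 to 6391386, plus strand, 3 exons) had 12.8 and 28.3 CPM in the mutant and 7.04 and 6.19 CPM in the wild type. Both mutant libraries lay above both wild type libraries, but the mutant libraries differed by more from each other than the lower one did from the wild type. The log2 fold change of MYB51 was 1.64 (SE 0.41) with all libraries and 0.96 without mutant replicate 2. MYB122 was close to the limit of detection, with 8 and 17 reads in the mutant and 8 and 2 in the wild type. It did not pass the low-count filter, and its summed reads were 25 in the mutant and 10 in the wild type. The libraries overlapped between the genotypes, with 0.226 and 0.436 CPM in the mutant and 0.263 and 0.0553 CPM in the wild type. In bulk callus, fewer cells of a type and less RNA per cell cannot be told apart, for these and all other values.

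**Figure D1:**
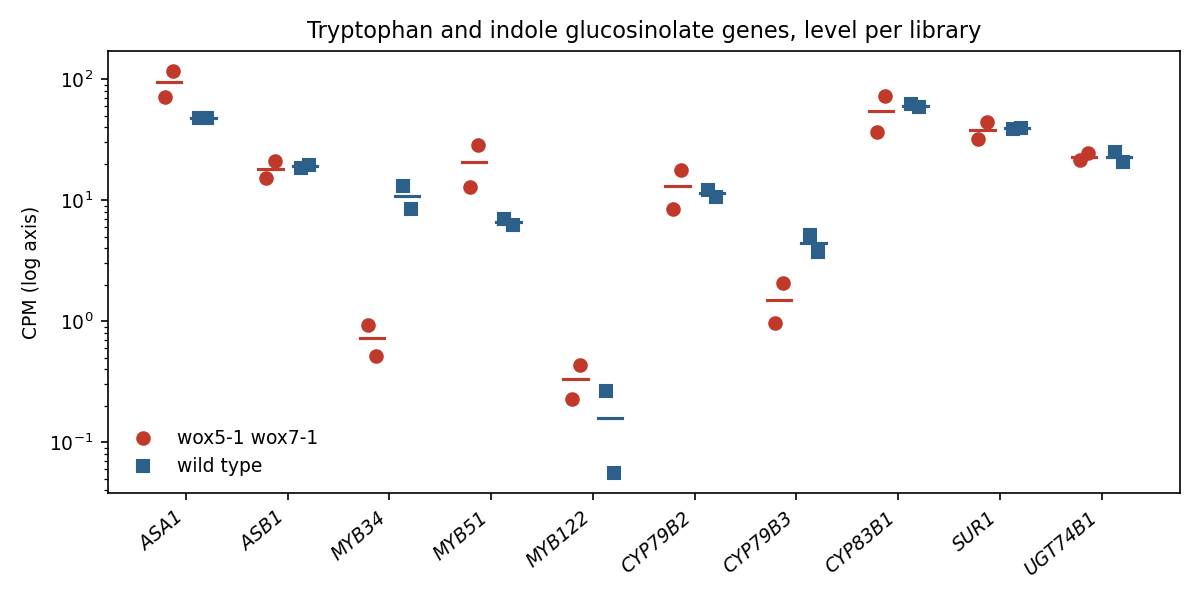
CPM on a log axis of the 10 genes in each library, mutant (circles) left of wild type (squares), with short lines at the genotype means. MYB34 and CYP79B3 lie lower and MYB51 and ASA1 higher in both mutant libraries than in both wild type libraries, and the libraries of the other genes overlap between genotypes.

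Compared per length of exon, the dominant MYB transcript differed between the genotypes. MYB34 made up 6.71% and 1.76% of the summed CPM per kilobase of the 3 MYB genes in the mutant libraries and 64.2% and 57.5% in the wild type libraries. MYB51 made up 91.4% and 96.5% in the mutant and 34.3% and 42.1% in the wild type, and MYB122 held at most 1.85% in any library. The summed level of the 3 genes was 7.84 and 16.4 CPM per kilobase in the mutant and 11.5 and 8.25 in the wild type. The shares were far apart between genotypes, whereas the sums overlapped.

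**Figure D2:**
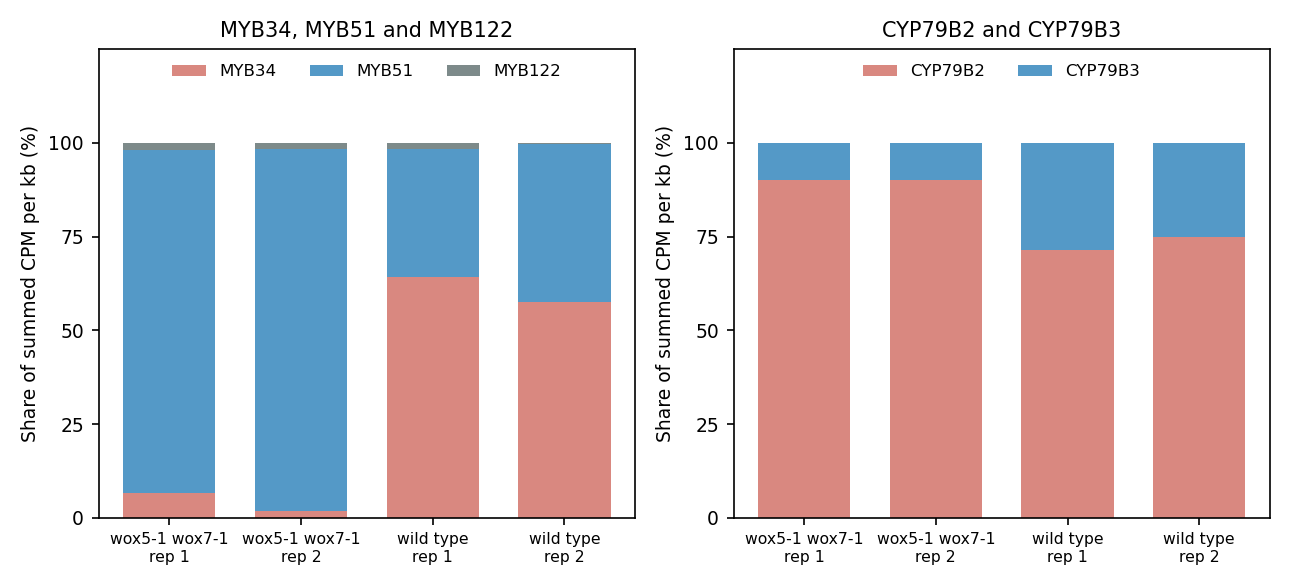
Shares in percent of summed CPM per kilobase of exon, for the 3 MYB genes (left panel) and the 2 CYP79B genes (right panel), 1 bar per library with the mutant on the left. MYB34 holds 6.71% and 1.76% in the mutant and 64.2% and 57.5% in the wild type, and CYP79B3 holds 9.75% and 9.98% in the mutant and 28.5% and 25% in the wild type.

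The 250 bases before the annotated starts of MYB34 (chr5:24494041-24494290) and MYB51 (chr1:6389149-6389398) are shown because these genes stood in opposite directions. The window of ASA1 (chr5:1722934-1723183, minus strand) is shown as an example of the windows with a match. The windows are from TAIR10.1, read 5′ to 3′ on each gene's strand, and capitals mark matches to the motifs searched on both strands.
MYB34: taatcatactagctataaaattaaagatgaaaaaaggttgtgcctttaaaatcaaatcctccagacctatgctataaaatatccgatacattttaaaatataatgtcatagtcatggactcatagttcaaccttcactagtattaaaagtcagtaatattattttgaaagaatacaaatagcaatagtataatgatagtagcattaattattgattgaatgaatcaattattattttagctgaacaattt
MYB51: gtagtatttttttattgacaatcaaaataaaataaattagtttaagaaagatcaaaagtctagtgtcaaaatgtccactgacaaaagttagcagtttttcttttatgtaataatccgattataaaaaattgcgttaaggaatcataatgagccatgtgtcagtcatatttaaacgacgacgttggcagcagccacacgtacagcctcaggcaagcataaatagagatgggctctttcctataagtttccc
ASA1: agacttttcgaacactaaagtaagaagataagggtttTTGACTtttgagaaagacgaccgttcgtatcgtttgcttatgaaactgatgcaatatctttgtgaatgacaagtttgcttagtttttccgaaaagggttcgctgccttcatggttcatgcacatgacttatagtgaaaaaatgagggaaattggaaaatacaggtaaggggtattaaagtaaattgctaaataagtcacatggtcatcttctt
The motifs were the G-box CACGTG, which MYC factors bind, the W-box TTGACC or TTGACT of WRKY factors, TTAATGG, a WUSCHEL-type homeodomain motif, and the AC-type MYB element ACCNACC. None of these motifs occurs in the windows of MYB34, MYB51, MYB122, CYP79B2, CYP79B3 or CYP83B1. The windows of ASA1 and SUR1 each held 1 W-box and that of ASB1 held 3. A G-box was found in the window of SUR1 and an AC-type element in that of UGT74B1. The levels of ASB1, SUR1 and UGT74B1 overlapped between the genotypes, and no link between a motif and a level was tested. Of 27443 protein-coding genes, 28.4% had a W-box in this window, 6.49% a G-box, 6.99% the WUSCHEL-type motif and 6.10% the AC-type element.

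At the step from tryptophan to the aldoxime, CYP79B3 stood lower in the mutant and CYP79B2 overlapped. CYP79B3 (chromosome 2, 9488413 to 9491404) had 0.962 and 2.05 CPM in the mutant and 5.10 and 3.73 CPM in the wild type, with no overlap. Its log2 fold change was -1.54 (SE 0.45) with all libraries and -2.19 without mutant replicate 2. CYP79B2 (chromosome 4, 18525042 to 18527602) had 8.49 and 17.6 CPM in the mutant and 12.2 and 10.7 CPM in the wild type. The mutant libraries enclosed those of the wild type, and the log2 fold change of CYP79B2 was 0.20 (SE 0.37), or -0.42 without mutant replicate 2. CYP79B2 was the higher of both genes per length in all 4 libraries, with 90.2% and 90% of their summed level in the mutant and 71.5% and 75.0% in the wild type. The share was nearly the same in both mutant libraries although the summed level of the pair was 4.4 CPM per kilobase in the first and 9.17 in the second, against 7.97 and 6.66 in the wild type.

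The later core enzymes overlapped between the genotypes. CYP83B1, with the highest level per length of the 10 genes in the wild type, had 36.4 and 72.8 CPM in the mutant and 61.8 and 59.2 CPM in the wild type (log2 fold change -0.15, SE 0.34). Without mutant replicate 2 its log2 fold change was -0.73. SUR1 had 31.8 and 44.5 CPM in the mutant and 38.9 and 39.3 CPM in the wild type (-0.03, SE 0.18, or -0.29 without mutant replicate 2). UGT74B1 had 21.3 and 24.3 CPM in the mutant and 24.9 and 20.7 CPM in the wild type, with the same mean of 22.8 CPM in both genotypes and the smallest difference of the 9 tested genes (SE 0.14 on the log2 scale, and -0.09 without mutant replicate 2). In CYP83B1 and SUR1 the mutant libraries lay on either side of both wild type libraries.

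Of the anthranilate synthase genes, ASA1 stood higher and ASB1 overlapped. ASA1, the alpha subunit (chromosome 5, 1719533 to 1722933, minus strand), had 70.6 and 117 CPM in the mutant and 48.1 and 47.5 CPM in the wild type. Both mutant libraries were above the wild type, with a log2 fold change of 0.97 (SE 0.25), or 0.57 without mutant replicate 2. It overlaps 2 genes on the opposite strand, and without a stated strand setting reads in the overlap cannot be assigned with certainty. ASB1, the beta subunit (chromosome 1, 8836835 to 8839609, minus strand), had 15.1 and 20.9 CPM in the mutant and 18.5 and 19.6 CPM in the wild type (-0.08, SE 0.18, or -0.33 without mutant replicate 2). ASB1 is the least certain member. Over aligned coding bases it was 97.3% identical to each of 4 copies (AT1G24807, AT1G24909, AT1G25083 and AT1G25155), with a longest shared run of 278 bases, and all 4 copies were listed at 0 in every library, which may come from how shared reads were counted. It was 95.3% identical to AT5G57890, and 3 annotated genes overlap it. The other alpha subunit gene, ASA2, had 52.1 CPM in both mutant libraries and 54.9 and 59.5 CPM in the wild type (-0.14, SE 0.08, edgeR adjusted p = 0.289), and the difference between ASA1 and ASA2 was not tested.

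In order of level per length, the wild type libraries had CYP83B1 first (32.5 and 31.1 CPM per kilobase), then ASA1 (21.8 and 21.5) and SUR1 (20.8 and 21.0), UGT74B1 (14.9 and 12.4) and ASB1 (11.6 and 12.3), MYB34 (7.38 and 4.75) and CYP79B2 (5.69 and 5.00), MYB51 (3.94 and 3.47), CYP79B3 (2.27 and 1.67) and MYB122 (0.168 and 0.0354). The ranges of MYB34 and CYP79B2 overlapped, and ASA1 and SUR1, like UGT74B1 and ASB1, were separated by less than 1 CPM per kilobase between their nearest libraries. In both mutant libraries ASA1 was first, with 32 and 53 CPM per kilobase, and the range of MYB34 (0.526 and 0.289) overlapped that of CYP79B3 (0.429 and 0.916). With 2 libraries against 2, an exact permutation test cannot give a two-sided p below 0.333, so no order of neighbours was tested.

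Of the 9 members that passed the low-count filter, 1 was called by edgeR (adjusted p below 0.05), MYB34, on which the choice rests. Of all 18716 tested genes 11.9% were called in either direction, 6.06% as higher and 5.81% as lower in the mutant. No overlap between genotypes was seen for 4 of the 9, 2 higher and 2 lower in the mutant, beside 64.4% of all tested genes (31.5% higher and 33% lower). Because the contrast chose the set, nothing is read from these counts. The median log2 fold change of the 9 was -0.03 and that of all tested genes -0.001.

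The libraries of a genotype differed from each other in a way that the choice of the genes did not use. Mutant replicate 2 over mutant replicate 1, MYB51, CYP79B2, CYP79B3 and CYP83B1 had ratios of 2.21, 2.08, 2.13 and 2.00, ASA1 of 1.65, SUR1 of 1.4, ASB1 of 1.38 and UGT74B1 of 1.14. MYB34 alone of the 9 was lower in mutant replicate 2, with a ratio of 0.549. A ratio of at least 1.4 between these libraries was seen in 12.7% of all tested genes and one of at least 2 in 6.70%. In the wild type the ratios of replicate 2 to replicate 1 lay between 0.643, for MYB34, and 1.06, for ASB1. So MYB51 and the enzyme genes were higher in mutant replicate 2 than in replicate 1, though UGT74B1 only slightly, and MYB34 was lower. Pathogen response genes (7 of 7 tested, median log2 ratio 1.22) and camalexin genes (6 of 6, median 1.13) were also higher in mutant replicate 2. So were 11 of 12 breakdown and 4 of 4 transport genes. The other pathway lists ran from 1 of 4 partner regulators to 9 of 12 other indole glucosinolate steps, beside 9325 of all 18716 tested genes. In wild type replicate 2, 6 of 6 camalexin genes (median 0.324) and 1 of 7 pathogen response genes (median -0.623) were higher. The part of the pathogen response in the pathway's values was not tested, and these are differences between 2 libraries, with no replicate check.

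**Figure D3:**
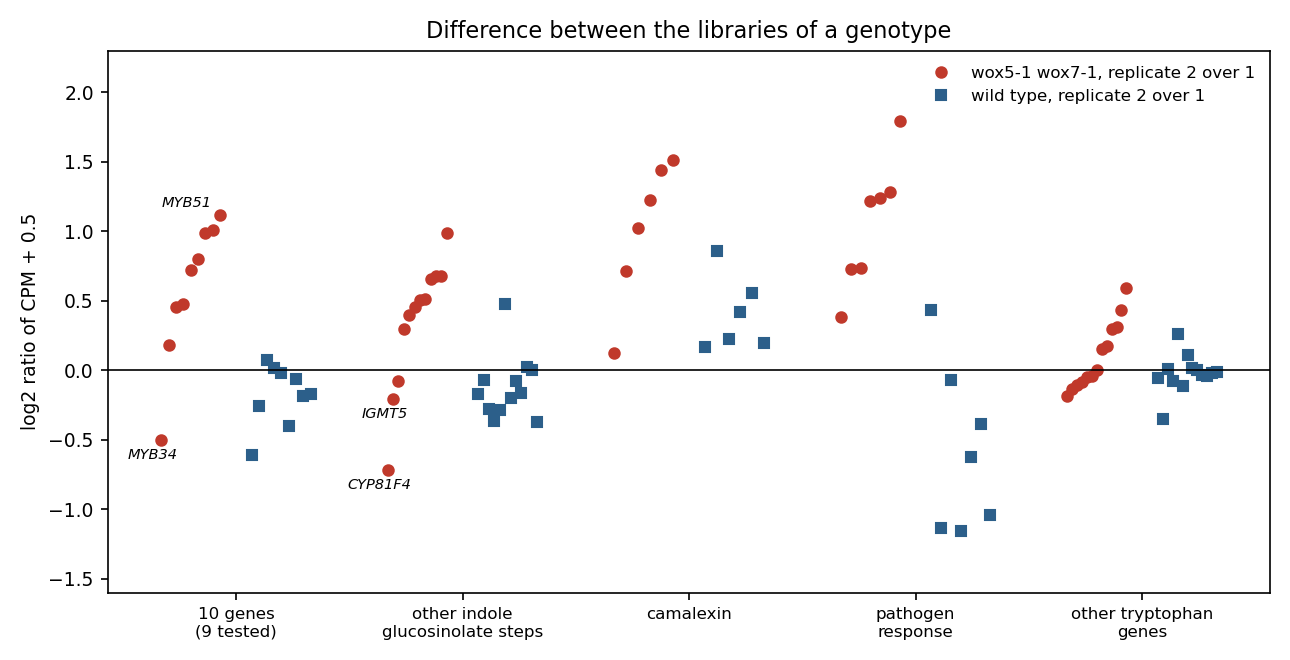
Log2 ratio of replicate 2 to replicate 1 (CPM with 0.5 added) within the mutant (circles) and within the wild type (squares), 1 point per tested gene, grouped by list. In the mutant 8 of 9 members lie above 0 and MYB34 below, the 7 pathogen response genes all lie above 0, and the 13 other tryptophan genes scatter around 0.

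Outside the 10 genes, CYP81F3, CYP81F4 and IGMT5 fell among the other steps of indole glucosinolate synthesis. Of 14 listed genes 12 were tested, of which 3 fell, none rose and 9 were not called, beside 5.81% of all tested genes that fell and 6.06% that rose (edgeR, Benjamini-Hochberg adjusted p below 0.05 over all 18716 genes). CYP81F4, the P450 that opens the branch to 1-methoxy glucobrassicin, had 2.94 and 1.59 CPM in the mutant and 9.60 and 8.46 CPM in the wild type (log2 fold change -1.99, SE 0.35, edgeR adjusted p = 0.0393). IGMT5, a methyltransferase of the same branch, had 48.2 and 41.7 CPM in the mutant and 78.3 and 74.5 CPM in the wild type (-0.77, SE 0.10, edgeR adjusted p = 0.0249). Both genes were lower in both mutant libraries. The ratios of mutant replicate 2 to replicate 1 were 0.540 for CYP81F4 and 0.865 for IGMT5, percentiles 1.6 and 18.8 of all tested genes. Of the 12 tested genes of these steps 9 were higher in mutant replicate 2, beside 9325 of all 18716 tested genes. CYP81F3, a related P450 of the 4-hydroxylation branch, had 7.30 and 10.2 CPM in the mutant and 20.1 and 28.2 CPM in the wild type (-1.47, SE 0.25, edgeR adjusted p = 0.0380). A gene on the opposite strand overlaps each of CYP81F4 and IGMT5. The CYP81F3 call was lost without mutant replicate 1 (edgeR adjusted p = 0.0517). Without either wild type library edgeR called 0 genes of the whole table, so every call named here and below was lost there (3428 and 3346 genes then had an unadjusted p below 0.05, and DESeq2 called 1337 and 1212).

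The other genes of these steps did not pass the threshold. For CYP81F2, which leads to the 4-methoxy branch, the log2 fold change was -0.43 (SE 0.26), and CYP81F1 was listed at 0 in all libraries. IGMT4 had 11.9 and 15.8 CPM in the mutant and 8.58 and 6.97 CPM in the wild type (0.83, SE 0.21, edgeR adjusted p = 0.0706), and DESeq2 called it (adjusted p = 0.0166). IGMT1 and IGMT2 share 92.5% of 1122 coding bases, so values within this family are uncertain. Of the glutathione transferase genes assigned to the conjugation step, GSTF9 had a log2 fold change of -0.79 (SE 0.36) and GSTF10 of 0.58 (SE 0.23). GGP1, which trims the glutathione conjugate, stood at -0.56 (SE 0.24), and the sulfotransferase gene SOT16 at 0.10 (SE 0.19). Without mutant replicate 2, GSTF9 (-1.37, edgeR adjusted p = 0.0422) and GGP1 (-0.94, adjusted p = 0.0232) were also called, and CYP81F3, CYP81F4 and IGMT5 were called as before. Without mutant replicate 1 the added calls went the other way, with GSTF10 (0.88, edgeR adjusted p = 0.0157) and IGMT4 (1.02, adjusted p = 0.0490) higher in the mutant. DESeq2 with all libraries also called GSTF10 (adjusted p = 0.0475). These 6 genes, and ASA2, MYC3, NIT1, PAD4, PAD3 and GSTF6, were chosen after their values were seen.

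**Figure D4:**
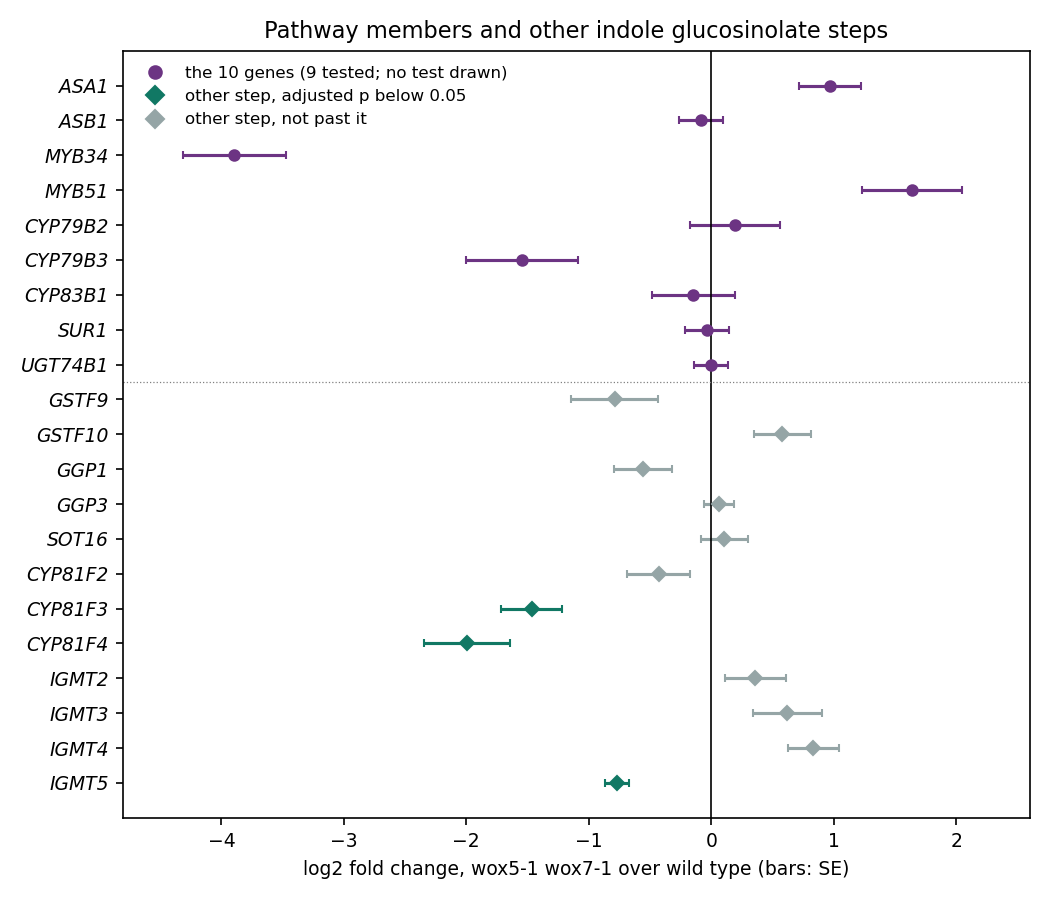
Log2 fold change of the mutant over the wild type with its SE, for the 9 tested members (circles) and the 12 other tested indole glucosinolate genes (diamonds, dark where the edgeR adjusted p was below 0.05). CYP81F3, CYP81F4 and IGMT5 lie left of 0 and passed the threshold, and the 3 methyltransferase genes IGMT2, IGMT3 and IGMT4 lie right of 0 without passing it.

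In the lists of precursor pathways the called genes were DHS1, TSBtype2 and APS3, 1 in each list, beside 11.9% called over all tested genes. Of 13 tested shikimate pathway genes, 1 fell and 12 did not pass the threshold, with a median log2 fold change of -0.02. DHS1, which makes the first intermediate, fell to 114 and 111 CPM in the mutant, against 146 CPM in both wild type libraries (-0.37, SE 0.07, edgeR adjusted p = 0.0403). Of 13 tested tryptophan genes besides ASA1 and ASB1, 1 rose and 12 were not called, with a median of -0.02. TSBtype2, a tryptophan synthase beta-type gene, had 96.0 and 108 CPM in the mutant and 70.2 and 70.5 CPM in the wild type (0.54, SE 0.09, edgeR adjusted p = 0.0345). Of 11 sulfate activation genes, which supply the sulfate group, 1 fell and 10 did not pass. The ATP sulfurylase gene APS3 had 11.2 and 12.6 CPM in the mutant and 17.7 and 18.6 CPM in the wild type (-0.61, SE 0.12, edgeR adjusted p = 0.0454). The calls of DHS1 and APS3 were lost without either mutant library (edgeR adjusted p = 0.0523 and 0.0722 without replicate 1), and that of TSBtype2 without mutant replicate 2 (0.0605).

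Among genes of aliphatic glucosinolates, which derive from methionine, BCAT3 fell, 1 of 5 tested, beside 5.81% of all tested genes. Of 21 listed, 9 had no read in any library, among them the regulators MYB28, MYB29 and MYB76 and the P450 genes CYP79F1, CYP79F2 and CYP83A1, and 5 were tested. Of all 32833 genes 9342 had no read. How reads were counted is not known, so a listed 0, here or for TGG2 and CYP81F1, is not read as absence. A gene with 3 reads would stand at 0.0770 to 0.0986 CPM in these libraries. BCAT3, a branched-chain aminotransferase that also serves amino acid metabolism, had 92.2 and 94.3 CPM in the mutant and 119 and 118 CPM in the wild type (-0.34, SE 0.07, edgeR adjusted p = 0.0455). This call was lost with limma-voom (adjusted p = 0.0542) and without either mutant library (edgeR adjusted p = 0.0719 without replicate 1 and 0.0898 without replicate 2).

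Of the 4 tested partner regulators of the MYB factors, MYC4 rose and 3 were not called. Over all tested genes 6.06% rose and 5.81% fell, and nothing is read from 1 of 4. MYC4, one of the bHLH factors that bind the MYB activators, had 17.9 and 15.5 CPM in the mutant and 10.7 and 8.93 CPM in the wild type (0.77, SE 0.15, edgeR adjusted p = 0.0476). Its paralogue MYC3 had 85.2 and 85.0 CPM in the mutant and 90.4 and 85.1 CPM in the wild type, and MYC2 was listed at 0 in all 4 libraries, which may come from the counting and is not read as absence. The MYC4 call was lost with upper-quartile scaling (edgeR adjusted p = 0.0552) and with limma-voom (0.0520), and without either mutant library (0.0874 and 0.0758).

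Of 6 tested camalexin genes none was called by edgeR, beside 11.9% of all tested genes. An unadjusted p below 0.05 was seen for 2 of the 6, beside 6247 of all 18716 tested genes. DESeq2 called 2, beside 3943 of the 18936 genes it tested. All 6 had a positive log2 fold change (median 1.10), beside 9322 of all 18716. WRKY33, a WRKY factor that activates camalexin synthesis, had 33.8 and 97.3 CPM in the mutant and 17 and 19.5 CPM in the wild type (1.84, SE 0.53, edgeR adjusted p = 0.0902). It was called without mutant replicate 1 (2.41, adjusted p = 0.00932) and without mutant replicate 2 (0.89, adjusted p = 0.0445). PAD3 (1.37, adjusted p = 0.0302) and GSTF6 (1.41, adjusted p = 0.0154) were called without mutant replicate 1 and not without mutant replicate 2. The spread between the mutant libraries was larger than the gap between the lower of them and the wild type, as in the pathogen response genes. None of 4 transport genes was called by edgeR, with 1 at an unadjusted p below 0.05 and 1 called by DESeq2, beside the same numbers over all tested genes. PEN3, an exporter of indole compounds in defence, had 364 and 528 CPM in the mutant and 299 and 309 CPM in the wild type (0.55, SE 0.19, edgeR adjusted p = 0.129), and was called without mutant replicate 1 (0.80, adjusted p = 0.0196).

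Of 20 genes of glucosinolate breakdown 12 were tested, with 1 that rose, 1 that fell and 10 not called, beside 6.06% and 5.81% over all tested genes. NSP1, a nitrile-specifier gene, fell to 185 and 210 CPM in the mutant, against 321 and 300 CPM in the wild type (-0.65, SE 0.10, edgeR adjusted p = 0.0316). NIT2, a nitrilase gene, had 669 and 734 CPM in the mutant and 510 and 439 CPM in the wild type (0.56, SE 0.11, edgeR adjusted p = 0.0493). NIT1 is 91.4% identical to NIT2 over 1020 coding bases, so reads may be shared, and its own difference was -0.25 on the log2 scale (SE 0.15, edgeR adjusted p = 0.331). The NIT2 call was lost with upper-quartile scaling (0.0515), with limma-voom (0.0533) and without either mutant library (0.0501 and 0.0993). Over the 9 lists outside the 10 genes, 10 of 80 tested genes were called, 3 higher and 7 lower in the mutant, a share close to the 11.9% called over all tested genes.

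The genes nearest to MYB34 in pattern, by root mean square distance of log2 CPM centred over the 4 libraries among 6840 candidate genes, were LSH1 (0.178), the sugar transporter gene SWEET1 (0.187), the phospholipase gene NPC2 (0.436), the auxin synthesis gene TAA1 (0.457) and the nuclease gene ENDO3 (0.566). LSH1 had 2.52 and 1.77 CPM in the mutant and 30 and 23.8 CPM in the wild type. SWEET1 had 0.736 and 0.359 CPM in the mutant and 8.12 and 7.44 CPM in the wild type. In each genotype both were lower in replicate 2 than in replicate 1, as was MYB34. The distance that chose them uses these same 4 libraries, so this direction is no separate likeness. NPC2, TAA1 and ENDO3 were higher in mutant replicate 2 (0.693, 2.80 and 1.77 CPM) than in mutant replicate 1 (0.538, 2.24 and 1.22 CPM). In mutant replicates 1 and 2, NPC2 had only 19 and 27 reads and SWEET1 only 26 and 14. For these 2 genes the direction between the mutant libraries is uncertain. With 4 libraries in 2 genotypes, the nearness of all 5 genes to MYB34 rests mostly on the difference between the genotypes.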

How the data were processed

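Read counts per gene were deposited by the authors for 32833 genes in 4 libraries, 2 of wox5-1 wox7-1 and 2 of wild type callus. Per the submitters' processing notes, the tools were STAR 2.7.2b, Trim Galore 0.5.0 and DESeq2, and the build was TAIR10, with no roles given. For the counting tool, strand setting and treatment of shared reads, nothing was given in the sources used. No deposited count was below 10 and 33.1% to 35.3% of genes per library held 10, so 10 was subtracted from each value, an inference from the values. RNA was extracted with TRIzol, per the labels' protocols.

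Counts were tested in R 4.3.3 with edgeR 4.0.16: filterByExpr (18716 genes kept), TMM scaling, glmQLFit and glmQLFTest without covariates, two-sided, Benjamini-Hochberg over all tested genes, threshold 0.05. CPM are counts per 1000000 over TMM-scaled libraries. SE is the absolute log2 fold change over the root of the F statistic. The code was tested on simulated data for the recovery of known fold changes. The simulated spread was smaller than that of these libraries, so calls at the real spread were not tested. Levels per length use exon lengths of the TAIR10.1 RefSeq annotation, whose nuclear chromosomes are those of TAIR10. The alternatives were other scalings, filters, DESeq2 1.42.0, limma-voom (limma 3.58.1), the replicate number as a block, the counts as deposited and leaving out each library. Libraries of 1 genotype differed beyond counting error (chi-square over degrees of freedom 46.6 in the mutant and 19.2 in the wild type).

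The 10 members and the gene lists were chosen with earlier results of these data known. Named were all members and, from each of 9 pathway lists, the called genes (at most 5) or else the gene with the smallest p, and the 5 genes nearest to MYB34 among those with a symbol that averaged 2 or more in log2 CPM. Some other genes, given above, were named after their values were seen. The limit of 3 reads covers counting error only.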

Additional observations from a re-analysis of the deposited data

How the results depend on the processing

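The number of called genes was 2223 (51.1% of them higher in the mutant). It was 3943 with DESeq2, 4750 with the replicate number as a block and 3416 with the counts as deposited (66.9% higher), a run that also tested 32833 genes and needed another dispersion trend. Leaving out 1 library gave 0 to 2493 genes. It was 0 without either wild type library, with 3428 and 3346 genes at an unadjusted p below 0.05 and 1337 and 1212 called by DESeq2, so every list call above was lost in those fits, in which the lone library is assumed to vary like the others. With DESeq2 the called genes were 2 of the shikimate list, 5 of the other indole glucosinolate steps, 2 partner regulators, 2 of camalexin and 1 of transport. With the replicate block they were 3 of shikimate, 3 of tryptophan, 2 partner regulators, 3 of camalexin and 1 of transport. Deviations from the genotype mean correlated at 0.555 between same-numbered libraries and at -0.555 between crossed ones. With 2 libraries per genotype the 2 pairs mirror each other, so this is 1 value. Whether the same number marks libraries handled together was not tested. With the counts as deposited they were 0 of shikimate, 5 of the indole steps, 0 of sulfate activation, 0 aliphatic, 2 partner regulators and 2 of camalexin. With limma-voom they were 0 aliphatic, 0 partner regulators and 1 of breakdown, with upper-quartile scaling 0 partner regulators and 1 of breakdown, and without a low-count filter 2 partner regulators. Leaving out 1 library gave 0 to 1 called genes of shikimate, sulfate activation, partner regulators and transport, 0 to 3 of tryptophan and camalexin, 0 to 5 of the indole steps, 0 to 4 of breakdown and 0 aliphatic. Among the 9 tested members, log2 fold changes moved by less than the spread between libraries under every scaling, filter and test tried (73 values), the sum of ASB1 with its copies included. Of 36 values with 1 library left out, 7 moved by more, all without mutant replicate 2. The MYB34 value lay between -4.38 and -3.52 with 1 library left out. The call of DHS1 was also lost with the counts as deposited, as were those of APS3 and BCAT3, and that of BCAT3 with limma-voom. MYB122, with 25 reads in the mutant and 10 in the wild type, is limited by depth.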
